A study of Mus musculus with 7 samples.

Results

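The 39 genes described here mark the cells that build brain vessels. They are 29 genes of endothelial cells and 10 of mural cells, chosen by name as known markers of these cells, and all 39 were among the 20859 genes listed in the count table. By role they are 6 endothelial receptors, 7 genes of junctions and adhesion, 8 transporters and lipid carriers of the blood-brain barrier, 8 other endothelial genes, 7 pericyte genes and 3 smooth muscle genes.

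Transcripts were counted in bulk cortex and hippocampus of mice by mcSCRB-seq, an assay that counts transcripts from their 3' ends. The study targeted CD38, a surface enzyme that consumes NAD, in mice that model Alzheimer's disease. The groups were FAD mice whose treatment is labelled CD38, taken here as an antibody against CD38 (7 in cortex, 7 in hippocampus), FAD mice labelled IgG, taken as its control antibody (7 and 7), and WT mice labelled PBS (9 and 8), where FAD stands for the genotype as labelled. Both regions came from the same mice, and libraries were made in 7 pools that each held several groups. Every comparison of FAD with WT therefore sets genotype and treatment apart together, since no WT mouse is labelled CD38 or IgG and no FAD mouse PBS. The transgenes, the promoter that drives them, the ages, the sexes and the doses are not given in the sources used for this text.

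Brain endothelial cells form the blood-brain barrier: tight junctions seal the gaps between them, and transporters such as the glucose carrier Slc2a1 move nutrients across. Pericytes wrap the capillaries and smooth muscle cells wrap the arterioles, and both are called mural cells. Amyloid is known to collect on vessel walls in Alzheimer's disease, so barrier and mural genes are often examined in its models. In bulk tissue, fewer cells of a type and less RNA per cell cannot be told apart.

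The wells held 1270918 to 5101368 counts each. The marker sum of 5 hippocampal genes was 174 to 422 CPM (a gene's counts scaled to the total of its well) in hippocampus and 12.2 to 26.9 CPM in cortex, and no well overlapped the other region. Of 45 wells, 3 had a correlation under 0.95 with the mean of the other wells of their group. These were the hippocampus of FAD CD38 replicate 4 (0.896), the hippocampus of WT replicate 9 (0.909), with 17.2% of its counts from mitochondrial ribosomal RNA, and the cortex of FAD IgG replicate 5 (0.945), which had the lowest total. The hippocampus of FAD CD38 replicate 4 held 15500 CPM of Ttr, the transthyretin of choroid plexus, and another hippocampus, FAD IgG replicate 4, held 8750 CPM.

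The start regions of 25 of the 39 genes were found in RefSeq's table for build GRCm38.p6, each as 250 bases before to 50 bases after a transcription start. Those shown belong to the 3 members called between groups within a region, Cav1 at chr6:17306085-17306384 (+ strand), Itm2a at chrX:107403311-107403610 (- strand) and Slco1a4 at chr6:141856171-141856470 (- strand), and to the smooth muscle pair that moved together across mice, Acta2 at chr19:34255324-34255623 (- strand) and Myl9 at chr2:156775214-156775513 (+ strand). Each runs 5' to 3' on the strand of its gene. Capitals mark every match on either strand. The strings are the core of ETS factors (GGAAG), the GC box (GGGCGG), the TATA box (TATAAA) and the core of SOX factors (ACAAT). A further string is the CArG box, to which serum response factor binds in smooth muscle genes. It is marked only in its strict form (CCWWWWWWGG, W for A or T). Strings off by a single letter, such as ccctatatgg and ccttgtttgG in the Acta2 window, are not marked as CArG boxes. Matches can overlap, as the pair of ETS cores at the start of the Itm2a window does.
Cav1: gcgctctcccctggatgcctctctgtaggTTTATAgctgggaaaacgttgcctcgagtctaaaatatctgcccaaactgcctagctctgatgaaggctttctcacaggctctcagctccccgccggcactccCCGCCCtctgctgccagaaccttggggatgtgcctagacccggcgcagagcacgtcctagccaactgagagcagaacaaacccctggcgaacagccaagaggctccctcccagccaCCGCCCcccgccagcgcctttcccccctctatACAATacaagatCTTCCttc
Itm2a: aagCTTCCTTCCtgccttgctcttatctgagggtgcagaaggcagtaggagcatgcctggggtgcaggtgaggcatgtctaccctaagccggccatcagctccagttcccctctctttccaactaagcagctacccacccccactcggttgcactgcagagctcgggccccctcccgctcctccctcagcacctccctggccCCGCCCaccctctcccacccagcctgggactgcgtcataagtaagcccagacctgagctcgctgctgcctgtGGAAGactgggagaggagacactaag
Slco1a4: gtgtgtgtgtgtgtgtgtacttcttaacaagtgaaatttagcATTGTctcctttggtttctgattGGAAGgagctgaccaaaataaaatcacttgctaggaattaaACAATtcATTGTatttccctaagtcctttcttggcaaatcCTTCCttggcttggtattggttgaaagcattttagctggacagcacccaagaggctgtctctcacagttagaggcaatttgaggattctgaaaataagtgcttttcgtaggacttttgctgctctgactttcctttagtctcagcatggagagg
Acta2: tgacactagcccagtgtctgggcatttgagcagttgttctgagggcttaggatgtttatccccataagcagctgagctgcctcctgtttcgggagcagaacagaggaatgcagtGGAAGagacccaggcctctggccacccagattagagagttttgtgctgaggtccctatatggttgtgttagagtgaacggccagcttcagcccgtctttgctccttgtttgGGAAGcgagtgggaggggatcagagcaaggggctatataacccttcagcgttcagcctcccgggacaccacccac
Myl9: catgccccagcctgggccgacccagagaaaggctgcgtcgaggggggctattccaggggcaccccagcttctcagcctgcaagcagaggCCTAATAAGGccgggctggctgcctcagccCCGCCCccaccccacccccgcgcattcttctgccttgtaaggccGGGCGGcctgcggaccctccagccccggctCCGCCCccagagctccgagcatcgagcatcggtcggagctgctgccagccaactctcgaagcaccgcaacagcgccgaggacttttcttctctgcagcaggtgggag

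The ETS core, a letter string common by chance, was in 71.4% of all 32851 start windows of the table and in 63.3% of the 30 windows of these genes. The SOX core was in 31.0% of all windows and 23.3% of the genes' own, the GC box in 35.7% and 40%, and the TATA box in 13.6% and 23.3%. The CArG box in its strict form was in 1.63% of all windows and in 3.33% of the members' windows. The single strict match there is that of Myl9, and strings off by a letter were not counted. A match is a letter string and not a bound site.

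The spread between mice differed from gene to gene. Bsg, the basigin that chaperones monocarboxylate carriers, had 395 to 3194 counts per well, and its coefficient of variation between mice of a group (CV, median over the 6 groups) was 19.1%, against 2.43% from counting error alone. Slc2a1 had the lowest CV of the list at 14.6% and Ly6a, an endothelial surface antigen, 15.9%. The arterial smooth muscle genes Acta2 (alpha-actin) and Myl9 (myosin light chain) spread more than their counts require, at 35.5% and 32.8% against 14.7% and 12.4% from counting. Cdh5 (VE-cadherin, the adherens junction protein of endothelium), Tie1 (a receptor kinase), Abcc9 (the sulfonylurea receptor of pericytes), Tagln (transgelin of smooth muscle) and Atp13a5 (a pericyte ATPase) had at most 16 counts in any well and were tested in no comparison. Their group medians lay between 0.225 and 2.42 CPM, and Abcc9 was at 0 in 6 wells. Pecam1, Eng and Sox18 were tested in cortex but not in hippocampus. That left 34 members tested in cortex and 31 in hippocampus.

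**Figure D1:**
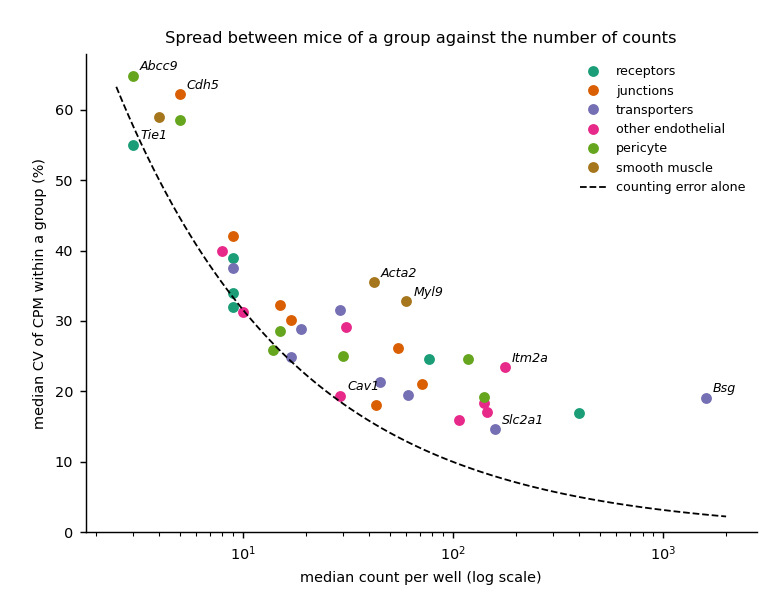
Median coefficient of variation of CPM between mice of a group (%) against the median count per well (log scale) for the 39 genes, coloured by role, with the dashed line at the value counting error alone would give. Tie1 and Cav1 lie near the line, while Cdh5 at 62.2%, Acta2 at 35.5%, Myl9 at 32.8% and Bsg at 19.1% lie above it.

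FAD CD38 was first set against FAD IgG, which by the labels differ in the treatment alone. No member passed the test in cortex (0 of 34), in hippocampus (0 of 31) or over the mean of both regions (0 of 34), and among all genes the share called was also 0.0% in cortex, 0.0% in hippocampus and 0.0% over the mean of regions (edgeR's quasi-likelihood test, and limma for the mean, Benjamini-Hochberg adjusted). DESeq2 and voom with sample quality weights called 0 members as well in either region. At an unadjusted p under 0.05 there were 2 members in cortex, 2 in hippocampus and 3 over the mean (5.88%, 6.45% and 8.82% of the members tested), beside 195, 197 and 247 of all genes (1.5%, 1.55% and 1.84%). With no difference at all, a share of about 0.05 would pass this threshold. The shares over all genes lay below that, and the members' shares lay above it by 2 or 3 genes at most. The median log2 fold change of the members was -0.11 in cortex and -0.01 in hippocampus, against -0.005 and 0.005 over all genes. The SE of a member's log2 fold change had a median of 0.20 in cortex and 0.22 in hippocampus, so small shifts were not detectable with these numbers of mice.

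Jam2, a junctional adhesion molecule, had the lowest unadjusted p in cortex. Its level was 7.86, 12.1 and 13.8 CPM (lowest, median, highest) in FAD CD38 cortex, 14.7, 15.8 and 21.2 CPM in FAD IgG and 12, 15.6 and 17.9 CPM in WT. The FAD CD38 and FAD IgG mice did not overlap, and in all 6 pools that held both groups the difference had the same sign. The fold change was -0.50 ± 0.16 on the log2 scale (SE, n = 7 and 7, edgeR adjusted p = 1.0, unadjusted p = 0.00461), so it did not pass. The highest FAD IgG value came from a well that stands apart, and without such wells the fold change was -0.42 ± 0.16 (adjusted p = 1.0, unadjusted p = 0.0169). In hippocampus the same gene had 9.16, 15.6 and 27.3 CPM in FAD CD38, 11.9, 12.8 and 18.1 CPM in FAD IgG and 9.09, 13.4 and 16.9 CPM in WT, groups that overlapped, and the highest FAD CD38 value there was that of replicate 4. The difference between regions of the FAD CD38 against FAD IgG fold change was 0.63 ± 0.21 (unadjusted p = 0.00474, limma adjusted p = 1.0), and 0.47 ± 0.20 without the wells that stand apart (unadjusted p = 0.0229, adjusted p = 0.999).

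Cav1, the coat protein of caveolae, had the lowest p in hippocampus. It had 6.30, 8.30 and 12.5 CPM in FAD CD38 hippocampus, 12.9, 14.4 and 18.1 CPM in FAD IgG and 6.17, 7.91 and 11.9 CPM in WT. Every FAD IgG mouse lay above every mouse of the other groups. FAD CD38 over FAD IgG was -0.58 ± 0.17 (edgeR adjusted p = 1.0, unadjusted p = 0.00292) and did not pass, and over the mean of both regions -0.46 ± 0.13 (limma adjusted p = 1.0, unadjusted p = 0.001). The other member under an unadjusted p of 0.05 in hippocampus was Slc2a1, at 0.24 ± 0.11 (edgeR adjusted p = 1.0), with 45.9, 50 and 57.8 CPM in FAD CD38 and 38.6, 45.1 and 52.1 CPM in FAD IgG.

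**Figure D2:**
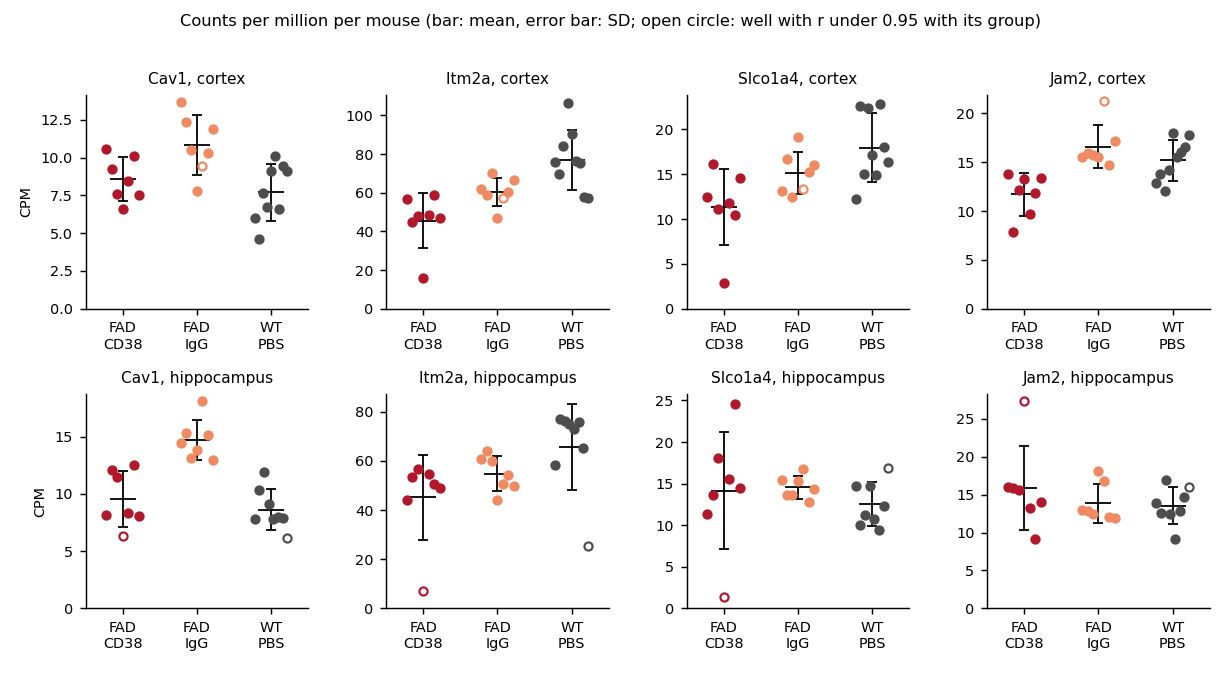
Levels in CPM of Cav1, Itm2a, Slco1a4 and Jam2 in each mouse, cortex above and hippocampus below, with the mean and SD of each group and open circles for wells whose correlation with their group was under 0.95. The 7 FAD IgG hippocampi sit at 12.9 to 18.1 CPM of Cav1 and above all other mice, and both wells of FAD CD38 replicate 4 are the lowest of Itm2a (15.6 and 7.00 CPM).

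The comparison of FAD IgG with WT shares its FAD IgG mice with the one above, so the 2 are given side by side only. Set against WT, FAD IgG mice differed in 1 member. In hippocampus Cav1 was called higher in FAD IgG, at 0.75 ± 0.16 (edgeR adjusted p = 0.00647, n = 7 and 8), and it was higher than in WT in all 6 pools that held both groups. In cortex Cav1 had 7.77, 10.5 and 13.7 CPM in FAD IgG and 4.61, 7.64 and 10.1 CPM in WT, where 5 of 7 FAD IgG mice lay above the highest WT mouse, at 0.45 ± 0.18 (edgeR adjusted p = 0.194). Over the mean of both regions the fold change was 0.61 ± 0.12 (limma adjusted p = 0.000431). All 18 alternatives in hippocampus and all 12 over the mean kept the call. Without the wells that stand apart the hippocampal value was 0.72 (edgeR adjusted p = 0.00459).

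That is 1 of 31 members called in hippocampus, beside 4.89% of all genes, 0 of 34 in cortex, beside 3.87%, and 1 of 34 over the mean, beside 8.05%. At an unadjusted p under 0.05 there were 3 members in cortex (8.82%, against 15.1% of all genes) and 2 in hippocampus (6.45%, against 14.5%). DESeq2 called 0 members in cortex and Cav1 alone in hippocampus, and voom with sample quality weights called Cav1 in cortex and 3 members in hippocampus (Bsg, Cav1 and Ramp2). The share of all genes called in these alternatives is not given here. The median of the members was -0.05 in cortex and 0.00 in hippocampus. Microglia markers differed far more: the sum of 8 was 847 to 1380 CPM in FAD IgG cortex against 286 to 418 CPM in WT, and 1060 to 1400 CPM in hippocampus against 235 to 354 CPM. Interferon-response genes also differed, at 119 to 267 CPM in FAD IgG hippocampus against 22.2 to 50 CPM in WT, and the part of either in the Cav1 value was not tested.

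FAD CD38 was set against the same WT mice. It was lower than WT in 2 members in cortex, that is 2 of 34 beside 4.53% of all genes called. Itm2a encodes a membrane protein with a BRICHOS domain that is abundant in brain endothelium. It had 15.6, 48.1 and 58.6 CPM in FAD CD38 cortex, 46.9, 60.6 and 70.3 CPM in FAD IgG and 57.2, 75.8 and 106 CPM in WT. Of 7 FAD CD38 mice, 6 lay below the lowest WT mouse, and the difference had the same sign in all 7 pools. The fold change over WT was -0.83 ± 0.18 (edgeR adjusted p = 0.00743, n = 7 and 9), called in all 18 alternatives, and -0.65 without FAD CD38 replicate 4 (adjusted p = 0.00849). FAD IgG over WT was -0.39 ± 0.19 (adjusted p = 0.322), and the value of FAD CD38 over FAD IgG was -0.44 ± 0.19 (adjusted p = 1.0). The FAD IgG median lay between the others, and the difference between the FAD groups did not pass.

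In hippocampus Itm2a had 7.00, 50.6 and 56.9 CPM in FAD CD38, 44.0, 54.3 and 64.1 CPM in FAD IgG and 25.5, 74.0 and 77.0 CPM in WT. The lowest value of FAD CD38 and that of WT both came from wells that stand apart. FAD CD38 over WT was -0.54 ± 0.25 with them (edgeR adjusted p = 0.265). Without them Itm2a was called at -0.45 ± 0.11 in FAD CD38 against WT (adjusted p = 0.0104), and 4 members were called in FAD IgG against WT. These were Cav1, higher, and Bsg (-0.27 ± 0.09, adjusted p = 0.0451), Itm2a (-0.37 ± 0.10, adjusted p = 0.0225) and Ramp2 (-0.27 ± 0.08, adjusted p = 0.0291), lower. The share of all genes called without these wells is not given here, so the 4 cannot be set beside it. Over the mean of both regions Itm2a was -0.71 ± 0.16 in FAD CD38 over WT (limma adjusted p = 0.00172, called in all 12 alternatives). It was -0.47 without FAD CD38 replicate 4 (adjusted p = 0.00383).

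Slco1a4, an organic anion carrier of the barrier, was the other member called in cortex. It had 2.84, 11.8 and 16.2 CPM in FAD CD38, 12.5, 15.2 and 19.1 CPM in FAD IgG and 12.3, 17.2 and 22.9 CPM in WT. The FAD CD38 range overlapped that of WT, though 4 of 7 mice lay below the lowest WT mouse. The fold change over WT was -0.74 ± 0.19 (edgeR adjusted p = 0.021), and it was -0.58 without FAD CD38 replicate 4 (adjusted p = 0.0467). The call was lost without pool 6 (adjusted p = 0.0965), without pool 7 (0.0656) and without pool 8 (0.0886). In hippocampus the sign was the opposite, with 1.40, 14.5 and 24.6 CPM in FAD CD38, 12.8, 14.4 and 16.8 CPM in FAD IgG and 9.43, 11.8 and 16.9 CPM in WT (FAD CD38 over WT 0.21 ± 0.23, adjusted p = 0.672). Without the wells that stand apart that hippocampal value was 0.42 ± 0.16 (adjusted p = 0.121).

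In hippocampus 0 of 31 members were called in FAD CD38 against WT, beside 5.31% of all genes, and over the mean of regions 2 of 34, beside 8.75%. DESeq2 also called 0 in hippocampus, and 2 were under an unadjusted p of 0.05 (6.45%, against 17.7% of all genes). Voom with sample quality weights called 3 (Bsg, Flt1 and Itm2a), and the share of all genes it called is not given here. The second member called over the mean was Egfl7, a protein that endothelial cells secrete into the vessel matrix, at -0.29 ± 0.08 (limma adjusted p = 0.0193). Egfl7 had 29.6, 42.2 and 52.4 CPM in FAD CD38 cortex, 31.5, 46.7 and 54.3 CPM in FAD IgG and 38.0, 53.6 and 56.7 CPM in WT, groups that overlapped. In hippocampus it had 26.6, 41.8 and 46.9 CPM in FAD CD38, 35.3, 46.4 and 48.7 CPM in FAD IgG and 30.1, 47.1 and 64.4 CPM in WT. The call was lost without FAD CD38 replicate 4 (-0.25, adjusted p = 0.0628) and without pool 6 (adjusted p = 0.0689), pool 7 (0.0625), pool 10 (0.0533) or pool 11 (0.135).

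With all wells, edgeR called no receptor between groups within a region, and limma none over the mean of regions. Flt1, a VEGF receptor, had 25.6, 28.9 and 53.2 CPM in FAD CD38 hippocampus, 12.8, 26.8 and 33.5 CPM in FAD IgG and 16.3, 21.7 and 33.3 CPM in WT, where all 7 FAD CD38 mice lay above the WT median. FAD CD38 over WT was 0.51 ± 0.23 for Flt1 (edgeR adjusted p = 0.234), and 0.37 ± 0.19 without the wells that stand apart (adjusted p = 0.258). In that comparison Flt1 was called by voom with sample quality weights (0.41, adjusted p = 0.0444) and with the mitochondrial RNA share as a covariate (0.53, adjusted p = 0.0324). Kdr, the main VEGF receptor of endothelium, ranged from -0.45 to 0.27 in log2 fold change over the comparisons of groups within a region, and Tek, the angiopoietin receptor, from -0.60 to -0.10. Ramp2, which makes the adrenomedullin receptor, stayed between -0.23 and 0.11, and was called lower in FAD IgG than in WT hippocampus by voom with quality weights and without the wells that stand apart. Eng, a co-receptor of TGF-beta, was tested in cortex only, with 0.38 ± 0.29 in FAD IgG over WT (adjusted p = 0.582).

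No junction gene was called between groups within a region. Cldn5, the claudin that seals the barrier, had 13.6, 15.6 and 28.7 CPM in FAD CD38 cortex, 14.9, 18.4 and 29.6 CPM in FAD IgG and 10.7, 17.7 and 24.2 CPM in WT. In hippocampus it had 14, 16.7 and 29.1 CPM in FAD CD38, 14.7, 18.7 and 28.2 CPM in FAD IgG and 12, 16.9 and 23.6 CPM in WT. These ranges overlapped throughout, with log2 fold changes from -0.17 to 0.25. Ocln, the tight junction protein occludin, was -0.60 ± 0.27 in cortex of FAD CD38 over WT (edgeR adjusted p = 0.225), and Emcn, an endothelial sialomucin, was -0.52 ± 0.26 in hippocampus of FAD CD38 over FAD IgG (adjusted p = 1.0).

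Of the 8 transporters and lipid carriers, edgeR called 1 (Slco1a4) in cortex of FAD CD38 against WT and 0 in the other comparisons of groups within a region. Slco1c1, a thyroid hormone carrier, had 13.8, 16.6 and 22.1 CPM in FAD CD38 cortex, 8.66, 18.4 and 23.8 CPM in FAD IgG and 16.4, 23.9 and 31.3 CPM in WT. Its fold change over WT was -0.49 ± 0.17 in FAD CD38 (edgeR adjusted p = 0.0921) and -0.43 ± 0.17 in FAD IgG (adjusted p = 0.21), and the value of FAD CD38 was called in 5 of 18 alternatives. Bsg over WT was -0.24 and -0.25 in FAD CD38 cortex and hippocampus, and -0.26 and -0.22 in FAD IgG, none of them called by edgeR with all wells. Alternatives called Bsg lower in hippocampus, 3 of 18 for FAD CD38 and 2 of 18 for FAD IgG, and 1 of 18 did so in cortex for FAD CD38. Mfsd2a, the carrier of lysophosphatidylcholine that carries DHA into the brain, had 0.36 ± 0.19 in FAD CD38 over WT cortex (adjusted p = 0.325) and 0.01 ± 0.17 in hippocampus. Slc2a1, Slc7a5 (an amino acid carrier), Abcb1a (P-glycoprotein) and Pltp (phospholipid transfer protein) lay between -0.26 and 0.24 in every comparison of groups within a region.

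Among the other endothelial genes, Sox17 (a transcription factor of arterial endothelium) lay between -0.25 and 0.09, Vwf (von Willebrand factor) between -0.01 and 0.29, Ly6a between -0.19 and 0.06 and Ly6c1 between -0.25 and -0.06, none of them called by edgeR.

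No pericyte or smooth muscle gene was called between groups within a region. Pdgfrb, the PDGF receptor that holds pericytes to the vessel, had 1.67, 4.62 and 9.00 CPM in FAD CD38 cortex, 4.27, 4.53 and 7.87 CPM in FAD IgG and 2.89, 4.19 and 5.96 CPM in WT. FAD IgG over WT was 0.46 ± 0.24 for Pdgfrb (edgeR adjusted p = 0.371), and FAD CD38 over FAD IgG -0.47 ± 0.25 (adjusted p = 1.0). Rgs5, a regulator of G-protein signalling in pericytes, Vtn (vitronectin), Kcnj8 (a potassium channel subunit) and Higd1b (a pericyte marker) lay between -0.32 and 0.24. Acta2 had 7.00, 13.7 and 20.8 CPM in FAD CD38 hippocampus, 9.91, 16.4 and 20.9 CPM in FAD IgG and 7.41, 18 and 32.9 CPM in WT, and was -0.39 ± 0.24 (adjusted p = 0.406) in FAD CD38 over WT.

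**Figure D3:**
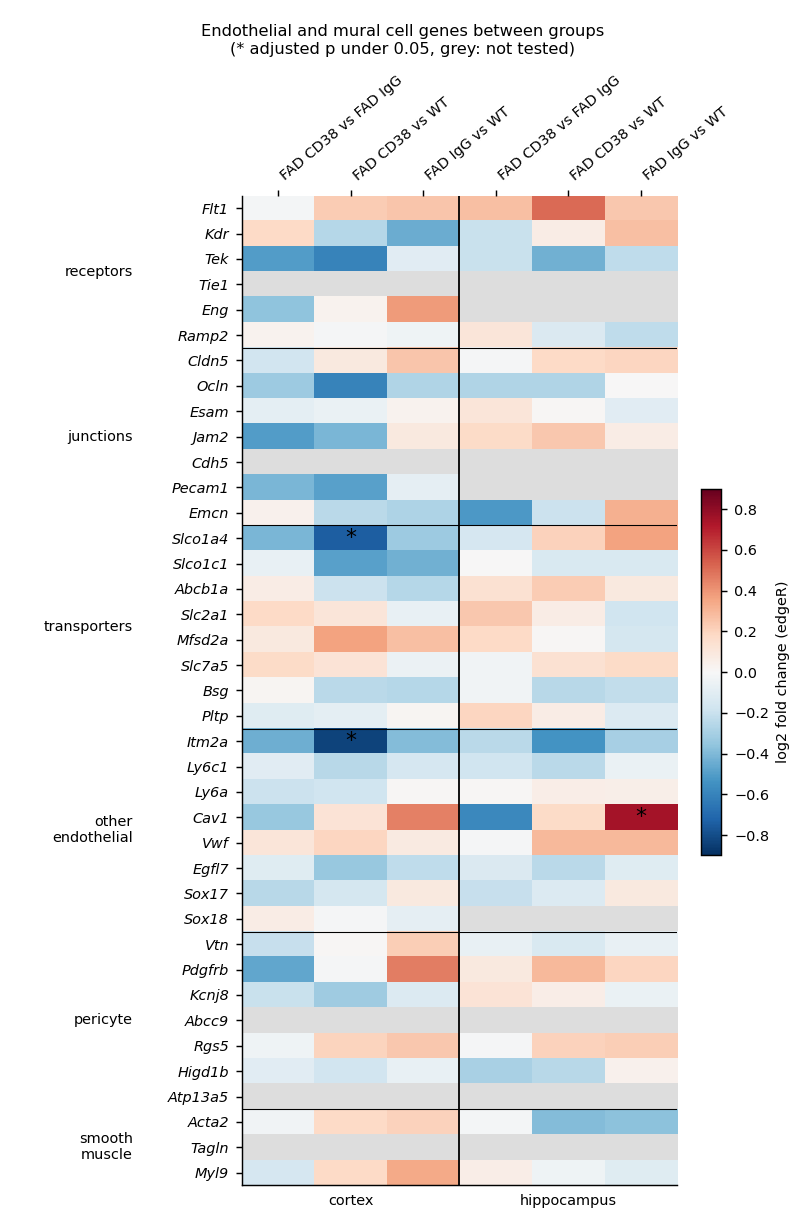
Log2 fold changes (edgeR) of the 39 genes, in rows by role, for the 3 comparisons of groups in cortex (left) and hippocampus (right), with the group named first on top of the ratio. Stars mark an adjusted p under 0.05: Slco1a4 (-0.74) and Itm2a (-0.83) in cortex of FAD CD38 over WT and Cav1 (0.75) in hippocampus of FAD IgG over WT, and grey marks genes with too few counts to be tested.

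The difference between regions in the effect of a group was tested as an interaction. No member passed for FAD CD38 against FAD IgG (0 of 34, beside 0.0% of all genes) or for FAD IgG against WT (0 of 34, beside 0.208%), by limma with the mouse as a correlated block. At an unadjusted p under 0.05 there was 1 member for FAD CD38 against FAD IgG, Jam2, and there were 2 for FAD IgG against WT, Emcn (unadjusted p = 0.0125) and Slco1a4 (0.0291). Voom with sample quality weights called 1, Emcn. Over all genes 321 and 1076 had an unadjusted p under 0.05 in these comparisons. These are 2.39% and 8.0% of all genes, beside 2.94% and 5.88% of the members tested.

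Hippocampus and cortex of the same 22 mice differed in many more members than the groups did. Of 28 tested, 12 were called (42.9%), beside 45.3% of all genes. In hippocampus 4 members were higher, beside 23.2% of all genes, and 8 were lower, beside 22.1%. The median log2 fold change of the members was -0.11, against 0.02 over all genes. The members' share called was near that of all genes.

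Among the members higher in hippocampus were 1 junction gene, 1 receptor, 1 caveolar gene and 1 smooth muscle gene. Ocln had 2.60, 6.87 and 8.5 CPM in hippocampus and 0.474, 4.17 and 7.96 CPM in cortex, higher in hippocampus in 19 of 22 mice, at 0.64 ± 0.13 (edgeR adjusted p = 6.75e-05). Acta2 had 7.00, 16.2 and 32.9 CPM in hippocampus and 5.84, 11.4 and 20.4 CPM in cortex, higher in 17 of 22 mice, at 0.43 ± 0.11 (adjusted p = 0.00142). Ramp2 had 91, 140 and 191 CPM in hippocampus and 87.2, 116 and 154 CPM in cortex, higher in 19 of 22 mice, at 0.24 ± 0.05 (adjusted p = 9.34e-05). The levels overlapped between regions for each of these genes, and the difference is one within mice. Cav1 was 0.26 ± 0.09 (adjusted p = 0.0188), with a mean log2 difference within a mouse of 0.12 in FAD CD38, 0.43 in FAD IgG and 0.20 in WT.

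The 8 members lower in hippocampus were 2 genes of junctions and adhesion (Esam, Emcn), 3 other endothelial genes (Ly6a, Ly6c1, Itm2a), 2 transporters (Abcb1a, Slc2a1) and 1 pericyte gene (Vtn). Ly6a had 18.1, 31.6 and 37.0 CPM in hippocampus and 29.9, 42.4 and 64.4 CPM in cortex, and was lower in hippocampus in 19 of 22 mice, at -0.47 ± 0.07 (edgeR adjusted p = 1.05e-06). Ly6c1, a related surface antigen of brain endothelium, had 16.1, 42.3 and 57.1 CPM in hippocampus and 35.4, 53.7 and 69.1 CPM in cortex, also lower in 19 of 22 mice, at -0.40 ± 0.06 (adjusted p = 1.44e-06). Vtn, which pericytes secrete, had 21.0, 38.1 and 70.1 CPM in hippocampus and 38.0, 52.1 and 77.2 CPM in cortex, and was lower in 20 of 22 mice, at -0.47 ± 0.07 (adjusted p = 1.31e-06). Esam, an endothelial adhesion molecule, was -0.39 ± 0.07 (adjusted p = 3.55e-05) and lower in 18 of 22 mice. Emcn (-0.36 ± 0.15), Abcb1a (-0.27 ± 0.11), Slc2a1 (-0.18 ± 0.06) and Itm2a (-0.18 ± 0.07) made up the 8. The calls of Abcb1a, Cav1, Emcn and Itm2a were lost when some single pools were left out, with adjusted p up to 0.0963 for Abcb1a, 0.0562 for Cav1, 0.137 for Emcn and 0.0789 for Itm2a (edgeR). Ly6a and Ly6c1 belong to a gene family of similar members, and the authors' counting could have split reads between them.

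Cldn5 and Flt1 were not called, each being higher in hippocampus in 11 of 22 mice (-0.00 ± 0.07 and -0.01 ± 0.07). Markers of other cells moved with the region, and no marker gene in the table was at 0 in all wells of a group. The sum of 5 blood genes was 46.1 to 566 CPM in hippocampus and 93.5 to 1210 CPM in cortex, with Hba-a2, a haemoglobin gene, at -1.14 ± 0.13 (edgeR adjusted p = 2.95e-08). The sum of 10 meningeal fibroblast genes was 54.2 to 165 CPM in hippocampus and 88.9 to 135 CPM in cortex. Among its genes Dcn was higher in hippocampus (1.85) and Fmod and Col1a2 lower (-1.66 and -0.84). Ttr, of choroid plexus, was higher in hippocampus at 1.69 ± 0.67 (edgeR adjusted p = 0.0462). Its levels rest on few wells: FAD CD38 had a median of 28.4 and a highest value of 15500 CPM in hippocampus, and 19.6 and 1620 CPM in cortex. The part of these in the regional differences of the members was not tested. Leaving out the mice with a well that stands apart gave 13 members called in place of 12, and the share of all genes in that fit is not given here.

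**Figure D4:**
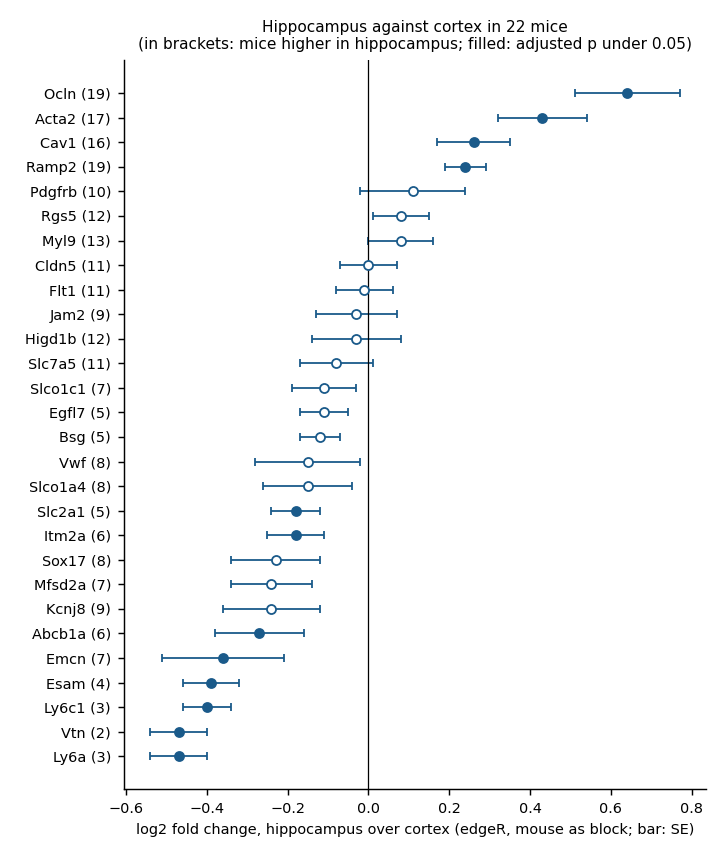
Log2 fold change of hippocampus over cortex with its SE for the 28 members tested in 22 mice (edgeR, mouse as a block), filled where the adjusted p was under 0.05, with the number of mice higher in hippocampus in brackets. Ocln lies at the top (0.64, 19 of 22 mice) and Ly6a and Vtn at the bottom (-0.47 each).

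Whether the genes moved together across mice was examined for 6 pairs in each region, 12 correlations in all, after removing group means (Pearson's r and Spearman's rho with permutation p, adjusted over the 12). Acta2 and Myl9, both of smooth muscle, had r = 0.78 in hippocampus (rho = 0.73, permutation p = 4e-05, adjusted p = 0.00048, n = 22) and r = 0.60 in cortex (rho = 0.56, permutation p = 0.00276, adjusted p = 0.00828, n = 23). Without the mice farthest from the median of Acta2 on the x axis, 2 in each region, r was 0.62 and 0.57. Without the wells that stand apart it was 0.61 and 0.58. The correlation also passed in both regions without those wells (permutation test, adjusted p = 0.0201 each).

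Flt1 and Rgs5, an endothelial and a pericyte gene, had r = 0.57 in hippocampus (rho = 0.52, permutation p = 0.00558, adjusted p = 0.0134) and r = 0.48 in cortex (rho = 0.50, permutation p = 0.0208, adjusted p = 0.0416). Without the 2 mice farthest on the x axis r was 0.46 and 0.61. Leaving out the wells that stand apart gave r = 0.51 and 0.46, which no longer passed (permutation test, adjusted p = 0.0504 and 0.0564). Cldn5 and Acta2 had r = 0.66 in hippocampus (rho = 0.64, permutation p = 0.00073, adjusted p = 0.00292; r = 0.63 without 2 mice) and r = 0.44 in cortex (rho = 0.40, permutation p = 0.0364, adjusted p = 0.0587; r = 0.26 without 2 mice), where it did not pass.

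Cldn5 and Flt1, both endothelial, had r = -0.24 in hippocampus (rho = -0.17, permutation p = 0.279, adjusted p = 0.335) and r = -0.19 in cortex (rho = -0.26, permutation p = 0.395, adjusted p = 0.431). Cldn5 and Ly6c1 had r = 0.25 in hippocampus (rho = 0.14, permutation p = 0.266, adjusted p = 0.335) and r = 0.43 in cortex (rho = 0.40, permutation p = 0.0391, adjusted p = 0.0587). Without the 2 mice farthest on the x axis r was -0.20 and -0.21 for Cldn5 and Flt1, and 0.36 and 0.38 for Cldn5 and Ly6c1. Acta2 and Tagln had r = 0.68 in hippocampus (rho = 0.68, permutation p = 0.00044, adjusted p = 0.00264; r = 0.58 without 2 mice) and r = -0.15 in cortex (rho = -0.09, permutation p = 0.498, adjusted p = 0.498; r = 0.27 without 2 mice), with at most 10 counts of Tagln in a well. Mice share pools, and with pool means also removed Cldn5 and Ly6c1 had r = 0.86 in hippocampus (permutation test, adjusted p = 8e-05). The permutation shuffled mice across pools and did not allow for the pool means removed, so this p-value can be too small. With only group means removed, leaving out the wells that stand apart took that pair from r = 0.25 to r = -0.16 (permutation test, adjusted p = 0.61). The value with pool means also removed was not computed without those wells.

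**Figure D5:**
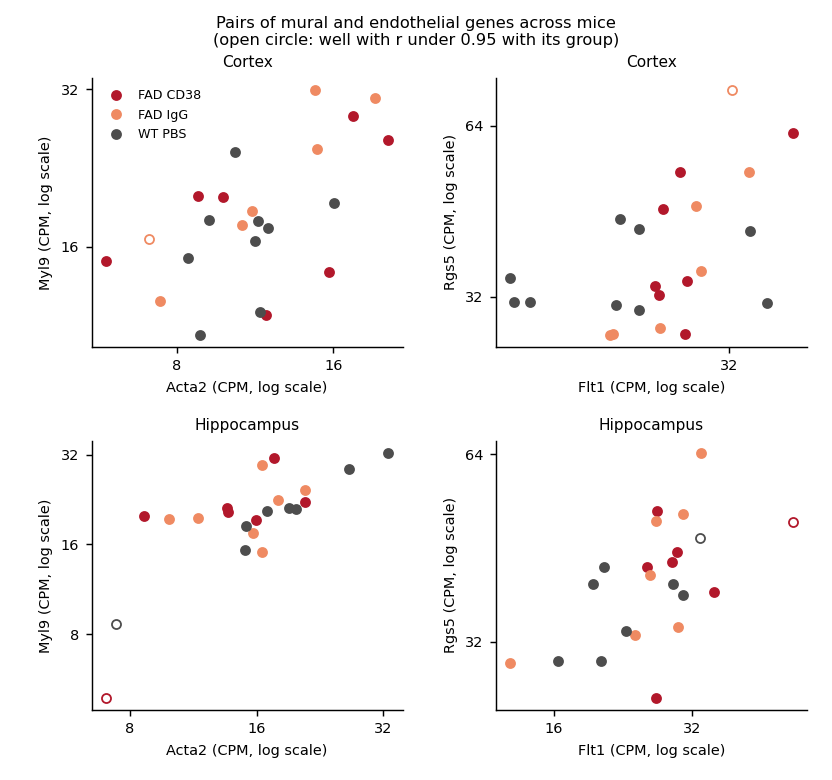
Levels in CPM (log scales) of Myl9 against Acta2 and of Rgs5 against Flt1 in each mouse, cortex above and hippocampus below, coloured by group, with open circles for wells whose correlation with their group was under 0.95. With group means removed, r was 0.78 in hippocampus and 0.60 in cortex for Acta2 and Myl9, and 0.57 in hippocampus and 0.48 in cortex for Flt1 and Rgs5, and 2 open circles lie at the low end of the hippocampal Acta2 and Myl9 plot.

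Wider lists of vessel genes set the 39 beside their pathways. Of 13 genes of the Wnt signal that induces the barrier, 10 were tested and 0 were called in any comparison of groups. Of 30 other endothelial genes tested in hippocampus, 5 were higher and 0 lower in FAD CD38 than in WT (median 0.09), and 5 higher and 0 lower in FAD IgG (median 0.18), that is 16.7% each beside 5.31% and 4.89% of all genes. In cortex 32 were tested, with 4 higher and 0 lower in each of FAD CD38 and FAD IgG (12.5% each, beside 4.53% and 3.87% of all genes). Those called were led by Ifitm3, an interferon-induced membrane protein, Srgn (serglycin) and F11r (a junctional adhesion molecule), genes that microglia or blood cells also express. In FAD CD38 cortex Hspb1 (0.84 ± 0.21 over WT, edgeR adjusted p = 0.0172) stood in place of F11r.

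Ifitm3 had 47.6, 69.0 and 123 CPM in FAD CD38 hippocampus, 69.3, 92.6 and 125 CPM in FAD IgG and 9.88, 28.6 and 44.7 CPM in WT. Neither FAD group overlapped WT. The fold change over WT was 1.47 ± 0.22 in FAD CD38 (edgeR adjusted p = 0.000175) and 1.69 ± 0.23 in FAD IgG (adjusted p = 4.18e-05). Of the angiogenic ligands, receptors and Notch genes 18 were tested in hippocampus. Of these, 4 were higher in FAD CD38 than in WT (22.2%, beside 5.31% of all genes). In FAD IgG 5 were higher than in WT (27.8%, beside 4.89%), and 0 were lower in either group. Tgfbr2, a TGF-beta receptor, led them at 2.05 ± 0.20 in FAD CD38 (adjusted p = 7.28e-07) and 2.02 ± 0.21 in FAD IgG (adjusted p = 1.37e-06). The sum of 8 microglia markers was 784 to 1380 CPM in FAD CD38 hippocampus, 1060 to 1400 CPM in FAD IgG and 235 to 354 CPM in WT, and its part in these values was not tested.

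Among 9 basement membrane genes tested in hippocampus 1 was called against WT in each FAD group. That is 11.1% each, beside 5.31% of all genes for FAD CD38 and 4.89% for FAD IgG. The gene was Sparc, a collagen-binding matrix protein, higher in both FAD groups. It had 167, 362 and 465 CPM in FAD CD38 hippocampus, 317, 425 and 612 CPM in FAD IgG and 220, 248 and 310 CPM in WT, where FAD IgG did not overlap WT. Sparc over WT was 0.55 ± 0.16 in FAD CD38 (edgeR adjusted p = 0.0469) and 0.79 ± 0.16 in FAD IgG (adjusted p = 0.00408). Of 15 other mural genes tested in hippocampus 2 were higher in FAD CD38 than in WT (13.3%, beside 5.31% of all genes). In FAD IgG 1 was higher than in WT (6.67%, beside 4.89%). The shared one was S1pr3, a sphingosine-1-phosphate receptor, at 1.56 ± 0.30 in FAD CD38 (adjusted p = 0.00204) and 1.67 ± 0.30 in FAD IgG (adjusted p = 0.00112). These lists held 0 genes called between FAD CD38 and FAD IgG. The part of microglia or astrocytes in the Sparc and S1pr3 values was not tested.

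The list for inflamed or leaky endothelium had 6 genes tested within a region. In each FAD group against WT, 1 was called lower in both regions (Apln) and 1 higher in hippocampus (Lcn2). The share called was 16.7% in cortex and 33.3% in hippocampus for each FAD group. Of all genes, 4.53% in cortex and 5.31% in hippocampus were called for FAD CD38, and 3.87% and 4.89% for FAD IgG. Apln is the apelin ligand that sprouting endothelial cells make. It had 9.24, 12.5 and 14.5 CPM in FAD CD38 cortex, 11.0, 14.3 and 16.1 CPM in FAD IgG and 18.8, 25.1 and 36.9 CPM in WT. Neither FAD group overlapped WT, at -1.13 ± 0.16 in FAD CD38 (edgeR adjusted p = 4.02e-05) and -0.84 ± 0.17 in FAD IgG (adjusted p = 0.0021). Lcn2, a lipocalin that inflamed endothelium and astrocytes make, had 3.21, 4.98 and 10.6 CPM in FAD CD38 hippocampus, 3.02, 3.34 and 8.44 CPM in FAD IgG and 0.0, 0.105 and 2.02 CPM in WT. Neither FAD group overlapped WT, at 3.53 ± 0.52 in FAD CD38 (adjusted p = 0.000111) and 3.27 ± 0.54 in FAD IgG (adjusted p = 0.000411). Over the mean of both regions Ch25h, the cholesterol 25-hydroxylase, was also higher, at 2.32 ± 0.34 in FAD CD38 (limma adjusted p = 9.47e-07). In FAD IgG it was 2.25 ± 0.35 (limma adjusted p = 2.85e-06). Its levels were low, with medians of 0.606 CPM in WT cortex and 0.475 CPM in WT hippocampus. The FAD CD38 medians were 2.89 and 2.08 CPM, and those of FAD IgG 2.55 and 3.07 CPM. The part of microglia or other cells in the Apln, Lcn2 and Ch25h values was not tested.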

How the data were processed

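Bulk mcSCRB-seq of mouse cortex and hippocampus was analysed from the raw counts that the authors deposited, whole numbers for each gene symbol in each well. The submitters' processing notes name bcl2fastq 2.17 and STAR 2.5.3a. Genome build, annotation, counting program and any collapse of molecular identifiers are not stated there. Each deposited sample is a pool of mice, so a well's region, genotype and treatment were read from the sample sheet of the authors and compared with the well's name; 1 mouse with conflicting labels (2 wells) was left out. The mouse was the replicate, and the lowest chi-square per degree of freedom over 148 replicate pairs was 2.738.

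For each region, edgeR 4.0.16 (R 4.3.3) fitted all 3 groups with the pool as an additive factor, using TMM scaling, filterByExpr (at least 10 counts, 15 in total) and the robust quasi-likelihood test. Means and differences of regions came from limma 3.58.1 after voom, where wells of a mouse were correlated at 0.256, and hippocampus against cortex from edgeR with the mouse as a block. Two-sided p-values were adjusted over all genes by Benjamini-Hochberg, with a threshold of 0.05. Gene pairs were compared on log2 CPM with a prior count of 2. Alternatives were DESeq2 1.42.0, RLE factors, other filters, no pool term, the 2 groups alone, sample quality weights and leaving out pools. Those chosen after seeing the data left out the wells that stand apart, wells with over 10% mitochondrial ribosomal RNA or FAD CD38 replicate 4, or used that RNA share as a covariate. The code was tested on simulated data. All 39 members were eligible to be named, and of each wider list up to 3 called genes with the smallest adjusted p. The members, lists and tests were chosen with earlier results of these data known. Counts are of 3' ends, so levels are not compared between genes.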

Additional observations from a re-analysis of the deposited data

Results flagged for a closer look

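In 27 of 234 sets of one gene, region and group, the highest or lowest mouse stood far from the others by Dixon's test at 95%, which chance alone does in about 1 set in 20. Of the 27, 17 came from the 3 wells that stand apart and 10 from other wells. The hippocampus of FAD CD38 replicate 4 (correlation 0.896 with its group, Ttr at 15500 CPM) gave 10 of the 11 in its group, and the hippocampus of WT replicate 9 gave all 5 in its group. These are repeats of 1 well each and not separate events.

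FAD CD38 replicate 4 was the highest hippocampus of its group for Jam2 (27.3 CPM), Cdh5 (10.5), Pecam1 (11.2), Flt1 (53.2) and Eng (7.0 CPM), and the lowest for Ramp2 (91 CPM), Bsg (277), Itm2a (7.0), Ly6c1 (16.1) and Ly6a (18.2 CPM). Cldn5 (29.1 CPM) was highest there in replicate 3. WT replicate 9 was the lowest hippocampus of its group for Ramp2 (91.8 CPM), Bsg (298), Itm2a (25.5) and Ly6c1 (24.3 CPM), and the highest for Abcc9 (3.29 CPM). In FAD IgG hippocampus replicate 6 was highest for Ly6c1 (57.1 CPM).

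In cortex, FAD CD38 replicate 4 was highest for Flt1 (37.4 CPM) and lowest for Itm2a (15.6 CPM), replicate 3 highest for Vwf (7.27 CPM) and replicate 7 for Tagln (3.75 CPM). FAD IgG replicate 5, the third well that stands apart, was highest for Jam2 (21.2 CPM) and Cdh5 (5.51 CPM), and replicate 4 for Abcb1a (10.0 CPM) and Abcc9 (4.85 CPM). WT replicate 8 was highest for Sox17 (17.1 CPM) and replicate 4 for Acta2 (16.0 CPM).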

How the results depend on the processing

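FAD CD38 against FAD IgG had 0 members called in every alternative run, 18 in each region and 12 over the mean. For FAD CD38 against WT, members called in cortex were 2, with 1 to 3 when a pool was left out and 5 with the mitochondrial RNA share as a covariate. In hippocampus they were 0, against 3 with sample quality weights, 1 without wells of high mitochondrial RNA, 1 without wells that stand apart and 3 with the covariate. Over the mean they were 2, against 6 with quality weights, 4 without wells apart and 1 to 4 when a pool or FAD CD38 replicate 4 was left out. For FAD IgG against WT they were 0 in cortex, against 1 with quality weights, and 1 in hippocampus, against 3 with quality weights and 4 without wells apart. Over the mean they were 1, against 4 with quality weights, 2 without wells apart and 1 to 2 when a pool or FAD CD38 replicate 4 was left out. The regional difference of FAD IgG against WT had 0, and 1 with quality weights. The shares of all genes called in the alternatives are not given here, so a change in these counts is not a result about the members. With pool means also removed, r was 0.45 for Cldn5 and Ly6c1 in cortex (adjusted p = 0.0433) and 0.86 in hippocampus, and -0.46 for Cldn5 and Flt1 in hippocampus (permutation test). The permutation did not allow for the pool means removed, so its p-values can be too small here. Without wells apart and with only group means removed, Cldn5 and Ly6c1 in hippocampus turned from 0.25 to -0.16. Flt1 and Rgs5 then had 0.46 in cortex and 0.51 in hippocampus, no longer past the threshold. The cause of these changes was not tested. Between hippocampus and cortex, Abcb1a lost its call in 4 of 11 alternatives, Cav1 in 3, Emcn in 4 and Itm2a in 3; without the mouse block Abcb1a (adjusted p = 0.058) and Itm2a (0.285) were lost (edgeR). The pools that groups share are a term of the model; by replicate number, no paired analysis was possible because each mouse belongs to 1 group and the numbers only name mice. Genes with few counts limit what could be detected: 5 members were never tested.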

Other observations

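Among vessel genes outside the 39, shares called between regions can be read beside the 45.3% of all genes called. Of 15 other mural genes tested in 22 mice, 3 were higher and 7 lower in hippocampus than in cortex, led by Mylk, the myosin light chain kinase (0.82 ± 0.11, edgeR adjusted p = 7.46e-08), and Tpm2, a tropomyosin (-0.74 ± 0.11, adjusted p = 2.8e-07). Of 30 other endothelial genes, 6 were higher and 9 lower, among them Slc22a8, an organic anion transporter (-1.01 ± 0.10, adjusted p = 3.4e-11), and Cd34, a sialomucin (-0.82 ± 0.07, adjusted p = 3.71e-12). Of 10 genes of the barrier's Wnt signal, the ligands Wnt7a (0.73 ± 0.11) and Wnt7b (0.62 ± 0.08) were higher and Nkd1, an inhibitor of the signal, was lower (-0.48 ± 0.12). Neurons and glia make these ligands, and their part was not tested.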
